A study of Mus musculus with 4 samples.

Results

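The 9 genes described here are ligands, receptors and a target of the transforming growth factor beta (TGF-beta) superfamily, measured in single phagocytes sorted from mouse hearts. They were taken by symbol from the 32285 genes of each count matrix. The ligands are Tgfb1, Tgfb2, Gdf3, Gdf15 and Inhba, the receptors are Tgfbr1, Tgfbr2 and Acvrl1, and Tgfbi is a target. Adult mice of mixed sex were injected intraperitoneally over 2 weeks, 2 times in each, with carboplatin, a platinum drug that crosslinks DNA, at 45 mg/kg, or with as much PBS. Every mouse recovered for 4 weeks and then carried a subcutaneous minipump for 7 days. The pump held saline, or angiotensin II (AngII) at 1.5 mg/kg per day together with PE, which the labels do not spell out, at 50 mg/kg per day. The 4 groups are PBS with saline, carboplatin with saline, PBS with AngII/PE and carboplatin with AngII/PE, and lists of 4 values below keep that order. Each group is 1 droplet library pooled from 5 mice. The sort took CD64+ cells that were also CD45+, CD11b+, Ly6G- and Ly6C low, which limits the libraries to phagocytes and whatever else passed that gate.

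TGF-beta ligands are made as dimers held in a latent complex, and most must be released before they bind. A released ligand brings together type II receptors such as Tgfbr2 and type I receptors such as Tgfbr1, which phosphorylate SMAD proteins that then enter the nucleus and change transcription. In the heart the pathway is known for driving fibroblasts to lay down matrix, and in macrophages for holding back inflammatory programmes. Activins, growth differentiation factors and bone morphogenetic proteins (BMPs) use related receptors, whereas GDF15 signals through a receptor of the hindbrain.

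The windows upstream of 3 members are shown because Gdf15 had the largest AngII/PE ratios among the members with a window, and because the ratios of the receptor genes Tgfbr1 and Tgfbr2 lay on opposite sides of 1 in 3 of the 4 comparisons. They are the 250 bases before the transcription start in RefSeq, build GRCm38.p6 (mm10), 5′ to 3′ on the strand of the gene. Gdf15 is on the minus strand (chr8:70632457-70632706), Tgfbr1 on the plus strand (chr4:47352972-47353221) and Tgfbr2 on the minus strand (chr9:116175364-116175613). Capitals mark matches to any of 7 motifs on either strand.

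Gdf15: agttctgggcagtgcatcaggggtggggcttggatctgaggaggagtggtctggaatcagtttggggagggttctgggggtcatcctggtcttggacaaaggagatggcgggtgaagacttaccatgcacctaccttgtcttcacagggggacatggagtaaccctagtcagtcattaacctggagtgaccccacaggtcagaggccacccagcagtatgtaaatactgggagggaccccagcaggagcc

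Tgfbr1: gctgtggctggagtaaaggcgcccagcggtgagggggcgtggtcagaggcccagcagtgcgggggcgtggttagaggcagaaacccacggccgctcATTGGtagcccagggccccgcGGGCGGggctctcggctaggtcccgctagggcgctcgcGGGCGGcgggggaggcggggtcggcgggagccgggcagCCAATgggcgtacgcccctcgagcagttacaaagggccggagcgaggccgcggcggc

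Tgfbr2: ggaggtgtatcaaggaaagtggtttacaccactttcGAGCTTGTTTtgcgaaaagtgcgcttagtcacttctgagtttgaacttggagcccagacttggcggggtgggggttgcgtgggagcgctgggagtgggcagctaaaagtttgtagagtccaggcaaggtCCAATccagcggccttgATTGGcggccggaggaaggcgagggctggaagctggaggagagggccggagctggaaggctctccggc

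The motifs were AP-1 (TGANTCA), the cyclic AMP response element (TGACGTCA), the short SMAD-binding motif (CAGACA), the GC box (GGGCGG), the CCAAT box (CCAAT), PU.1 (GAGGAAGT) and the p53 half-site. Of the 32851 windows of this length in the RefSeq table, 6.75%, 1.55%, 17.1%, 32.7%, 33.8%, 2.44% and 7.13% held them in that order. The Tgfbr1 window held 2 GC boxes and 2 CCAAT boxes, and 74.8% of its bases were G or C against a median of 52.4% over all windows. The Tgfbr2 window held 2 CCAAT boxes and 1 match to the p53 half-site, with 58.4% G or C. In the Gdf15 window shown none of the 7 motifs was found, and 56.4% of its bases were G or C. A second Gdf15 window, inside the gene, held 1 CCAAT box. Windows were found for 7 of the 9 members, 9 windows in all, and none for Gdf3 and Acvrl1. The SMAD motif occurred in the Tgfb2 window and in a second Tgfbr1 window. The AP-1, cyclic AMP and PU.1 motifs occurred in none of the 9 windows. A match is a description of letters, not a bound site.

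Each group has a single library, so no difference between groups can be set against the spread between mice, and no p-value is given. Levels are unique molecular identifiers (UMIs) of a gene divided by all UMIs of the same cells and scaled to CPM, that is, to a total of 1000000, with exact Poisson 95% intervals. Ratios of CPM carry exact conditional binomial 95% intervals and shares of cells carry Clopper-Pearson ones, and all of these cover counting error only. Transcripts were counted from their 3' ends, and levels are compared within a gene, not between genes. The filters kept 17312 of 27968 barcodes, 3484 to 5669 a library, with 39630235 to 72271962 UMIs. Macrophage-like clusters held 1949, 1017, 2127 and 3921 cells. A further 16.3 to 36.8% of kept cells had macrophage markers but few UMIs or other leading genes, and stayed unnamed. Among macrophage-like cells, Fcgr1, which encodes CD64, had a UMI in 83.3 to 89.6%, Csf1r in 99.4 to 99.7%, Ly6c2 in 0.718 to 2.36% and Ly6g in 0% of cells. Endothelial-like cells made up 6.21 to 15.9% of kept cells, against the labelled sort. Of 27889 distinct barcodes 79 occurred in 2 libraries, and leaving out the macrophage-like cells among them moved no count of members.

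**Figure D1:**
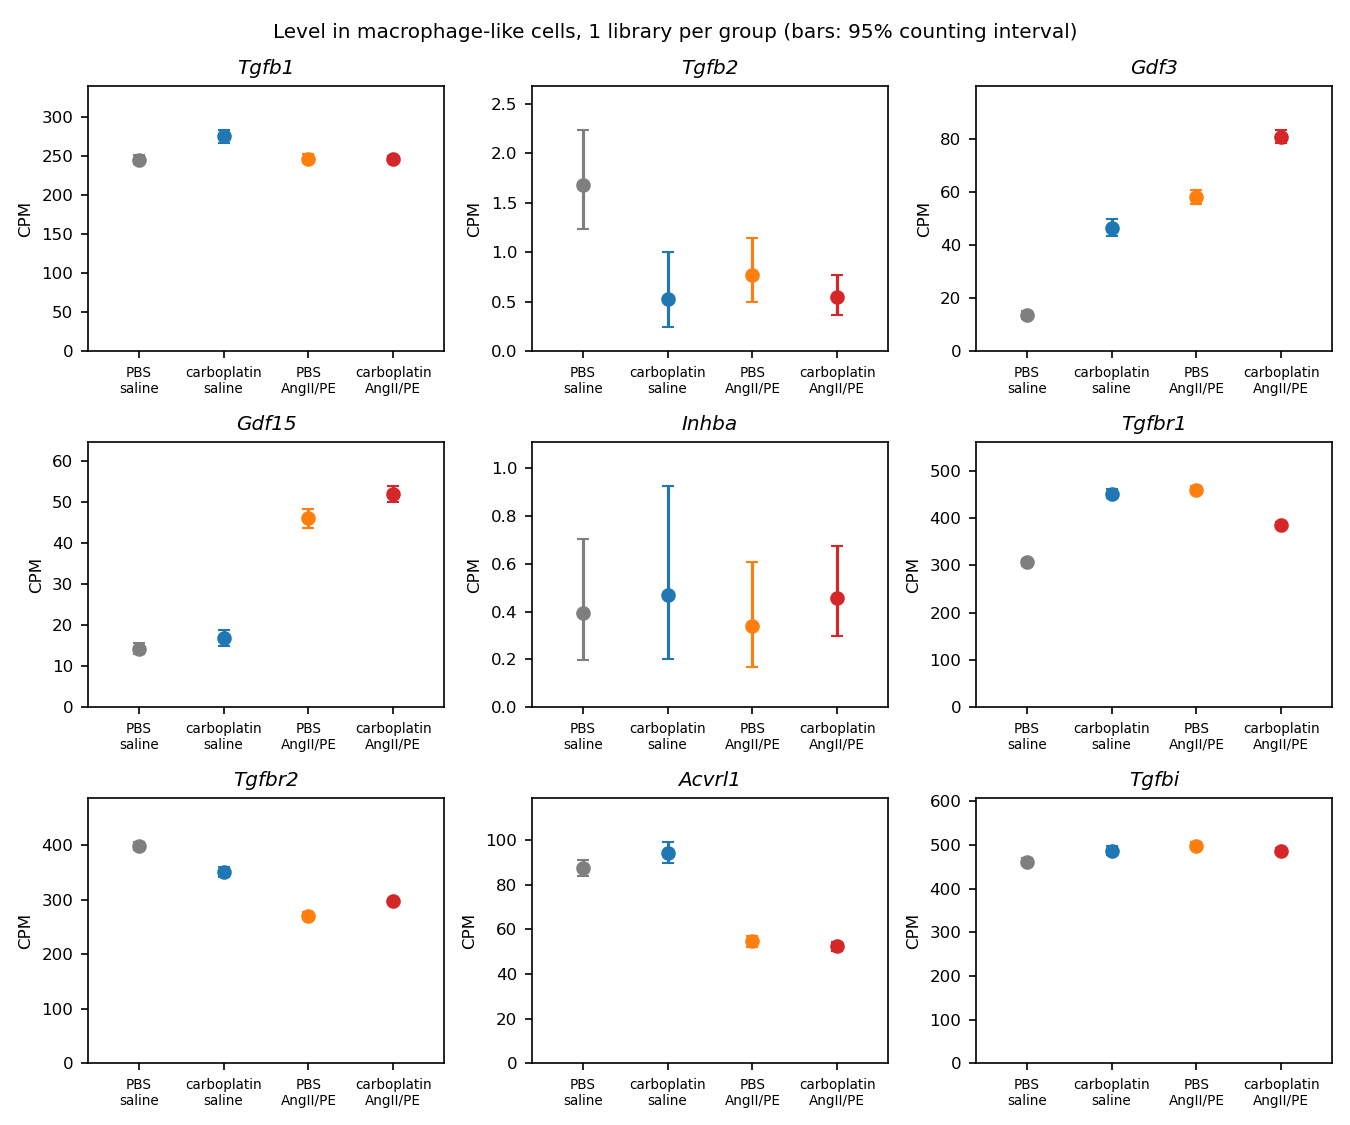
Level of each member in macrophage-like cells as CPM (y axis, from 0) in the 4 libraries (x axis), with exact 95% counting intervals as bars. Gdf3 spans 13.6 to 80.8 CPM, Gdf15 is higher and Acvrl1 lower in both AngII/PE libraries, and Tgfb1 stays between 245 and 275 CPM.

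In macrophage-like cells Gdf3 was the member past 1.5-fold between the carboplatin and PBS libraries that had saline pumps, and Gdf3, Gdf15 and Acvrl1 were past it between AngII/PE and saline whichever injection came first. Tgfbr1 passed that line with AngII/PE in the PBS pair only by a narrow margin. A member was compared where its mean over the libraries reached 10 CPM, which 7 of the 9 did and Tgfb2 and Inhba did not. With saline pumps 1 of the 7 was at least 1.5-fold higher after carboplatin and 0 were lower, where 3.77% of the 8492 genes compared lay past 1.5-fold in either direction. With AngII/PE pumps 0 of the 7 lay past it after carboplatin, against 1.44% of all genes. Between AngII/PE and saline, 3 members were higher and 1 lower in the PBS pair, against 17.2% of all genes. In the carboplatin pair 2 were higher and 1 lower, against 15.1%. The median log2 ratios of the 7 were 0.16, -0.00370, 0.11 and -0.16 in that order, and those of all genes -0.0353, 0.00525, 0.00321 and 0.0367. Each library enters 2 of the 4 comparisons, so their values are not independent.

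**Figure D2:**
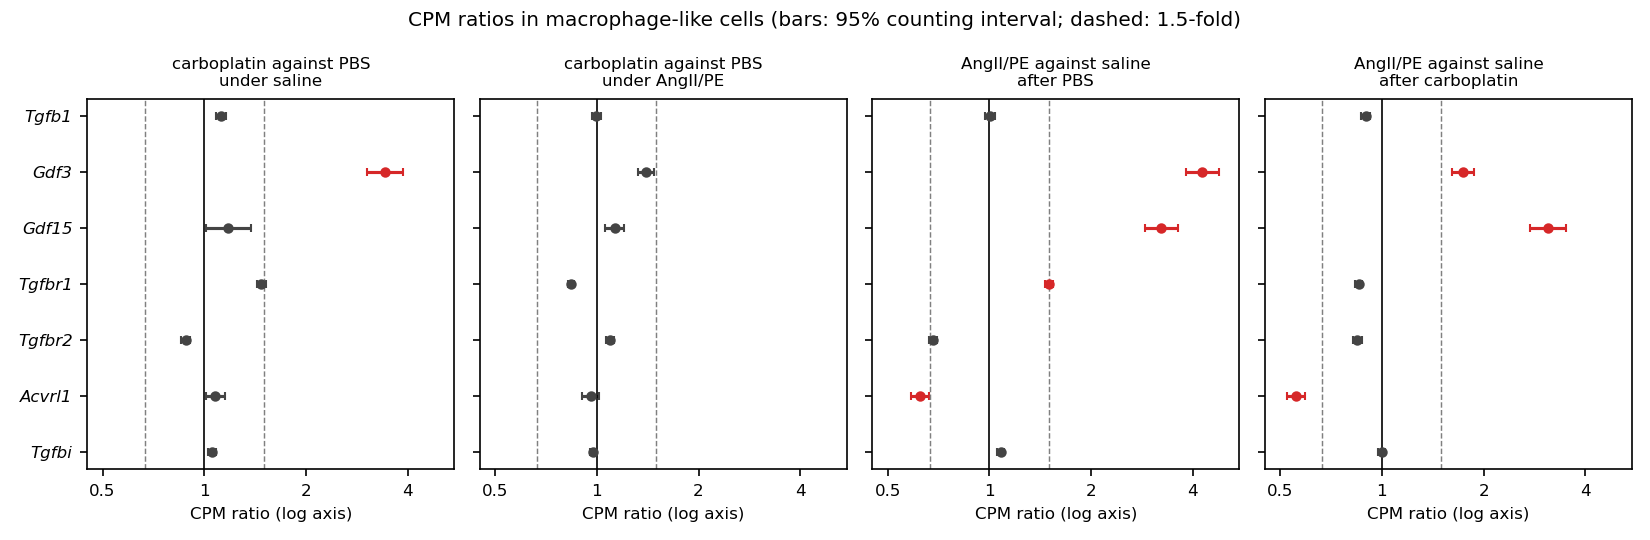
CPM ratio (x axis, log scale) of the 7 members with a mean of at least 10 CPM in macrophage-like cells, in the 4 comparisons, with exact 95% counting intervals as bars. Dashed lines mark 1.5-fold in each direction and red points lie past them, which Gdf3 does in 3 comparisons and Acvrl1 in both of AngII/PE with saline.

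Gdf3, a ligand of the BMP and growth differentiation factor branch, lies on chromosome 6 (122605403 to 122610087, minus strand, protein coding). Its level was 13.6 CPM (12.3 to 15.0, 380 UMIs) with PBS and saline, 46.5 CPM (43.3 to 49.9, 794 UMIs) with carboplatin and saline, 57.9 CPM (55.3 to 60.6, 1874 UMIs) with PBS and AngII/PE, and 80.8 CPM (78.5 to 83.2, 4581 UMIs) with carboplatin and AngII/PE. The 4 intervals did not overlap, and PBS with saline was the lowest. Carboplatin over PBS gave a ratio of 3.42 (3.03 to 3.88) with saline pumps and 1.39 (1.32 to 1.47) with AngII/PE pumps. AngII/PE over saline gave 4.26 (3.82 to 4.77) in the PBS pair and 1.74 (1.61 to 1.88) in the carboplatin pair. The first carboplatin ratio was 2.46 (2.15 to 2.81) times the second. With clusters rebuilt on log-normalised values the AngII/PE ratio in the carboplatin pair was 1.47, short of 1.5-fold.

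A minority of cells held the Gdf3 transcripts. A UMI was found in 4.72%, 18.6%, 15.3% and 23.2% of macrophage-like cells. With every cell thinned to 2000 UMIs the shares were 1.24% (0.794 to 1.83), 7.78% (6.21 to 9.61), 7.05% (5.99 to 8.22) and 10.8% (9.81 to 11.8). PBS with saline stayed lowest, and carboplatin with saline overlapped PBS with AngII/PE. Endothelial-like cells, taken as the background of free RNA, had a UMI in 0.502%, 0.721%, 0.329% and 4.83% of cells, highest in the library where macrophage-like cells were highest too. After thinning that background was 0%, 0.228%, 0% and 0.940%, and macrophage-like cells lay above it in each library. The 0 of 490 and 0 of 283 cells allow up to 0.750% and 1.30%. The median depth of endothelial-like cells was 7299 UMIs and that of macrophage-like cells 14407. The 10 highest cells held 43.2%, 18.3%, 12.9% and 6.11% of the Gdf3 UMIs, so the low level of PBS with saline rested on few cells.

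Within the resident-like cluster Gdf3 was higher after carboplatin with saline pumps, and with AngII/PE pumps too, where few cells held it. That cluster, marked by genes of long-lived cardiac macrophages, held 1779, 844, 90 and 47 cells, so that most macrophage-like cells of the AngII/PE libraries lay in other clusters. Its Gdf3 level was 9.23, 45.6, 6.70 and 57.8 CPM, from 234, 636, 8 and 40 UMIs. The carboplatin ratio was 4.94 (4.24 to 5.76) in the saline pair and 8.64 (3.99 to 21.4) in the AngII/PE pair. In the latter the UMIs after PBS lay in 3 cells, 6 of them in 1, and those after carboplatin in 9 cells, a spread the interval does not cover. Over all macrophage-like cells the resident markers summed to 3206, 1955, 744 and 814 CPM. The MHC class II markers summed to 39513, 54109, 22005 and 18241 CPM, and Ccr2 had a UMI in 23.7%, 52.4%, 52.1% and 54.5% of cells. Whether the resident-like cluster held the same kinds of cells in each library was not tested. The MHC class II cluster, with 74, 88, 591 and 874 cells, had 42.4, 53.9, 69.0 and 96.8 CPM and carboplatin ratios of 1.27 (0.893 to 1.83) and 1.40 (1.27 to 1.55). Between saline and AngII/PE in the PBS pair, the ratio was 0.725 (0.310 to 1.45) in resident-like, 1.63 (1.23 to 2.21) in MHC class II, 0.827 (0.529 to 1.37) in inflammatory, 0.342 (0.255 to 0.468) in lipid-associated cells and 0.946 (0.605 to 1.56) in cells with no subset name, against 4.26 in the clusters together. Single cells decided the last 3 of these. In the PBS saline library 1 cell held 16 of 20 UMIs in the inflammatory cluster, 46 of 53 in the lipid-associated one and 15 of 20 in cells with no subset name. Without the highest cell of each library these ratios were 3.56 (1.38 to 13.1), 2.05 (0.983 to 5.16) and 3.45 (1.47 to 10.7). All lay above 1, with an interval that includes 1 in lipid-associated cells, and that of MHC class II cells was 2.05 (1.48 to 2.91). Resident-like cells went the other way, with 8.49 CPM in PBS with saline and 1.70 CPM, from 2 UMIs, in PBS with AngII/PE. In the interferon cluster the ratio was 24.4 (4.24 to 977), above that of the clusters together, from 72 UMIs against 1. The cells were clustered on 3000 variable genes with 5 of the members among them, so levels by cluster are a description.

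**Figure D3:**
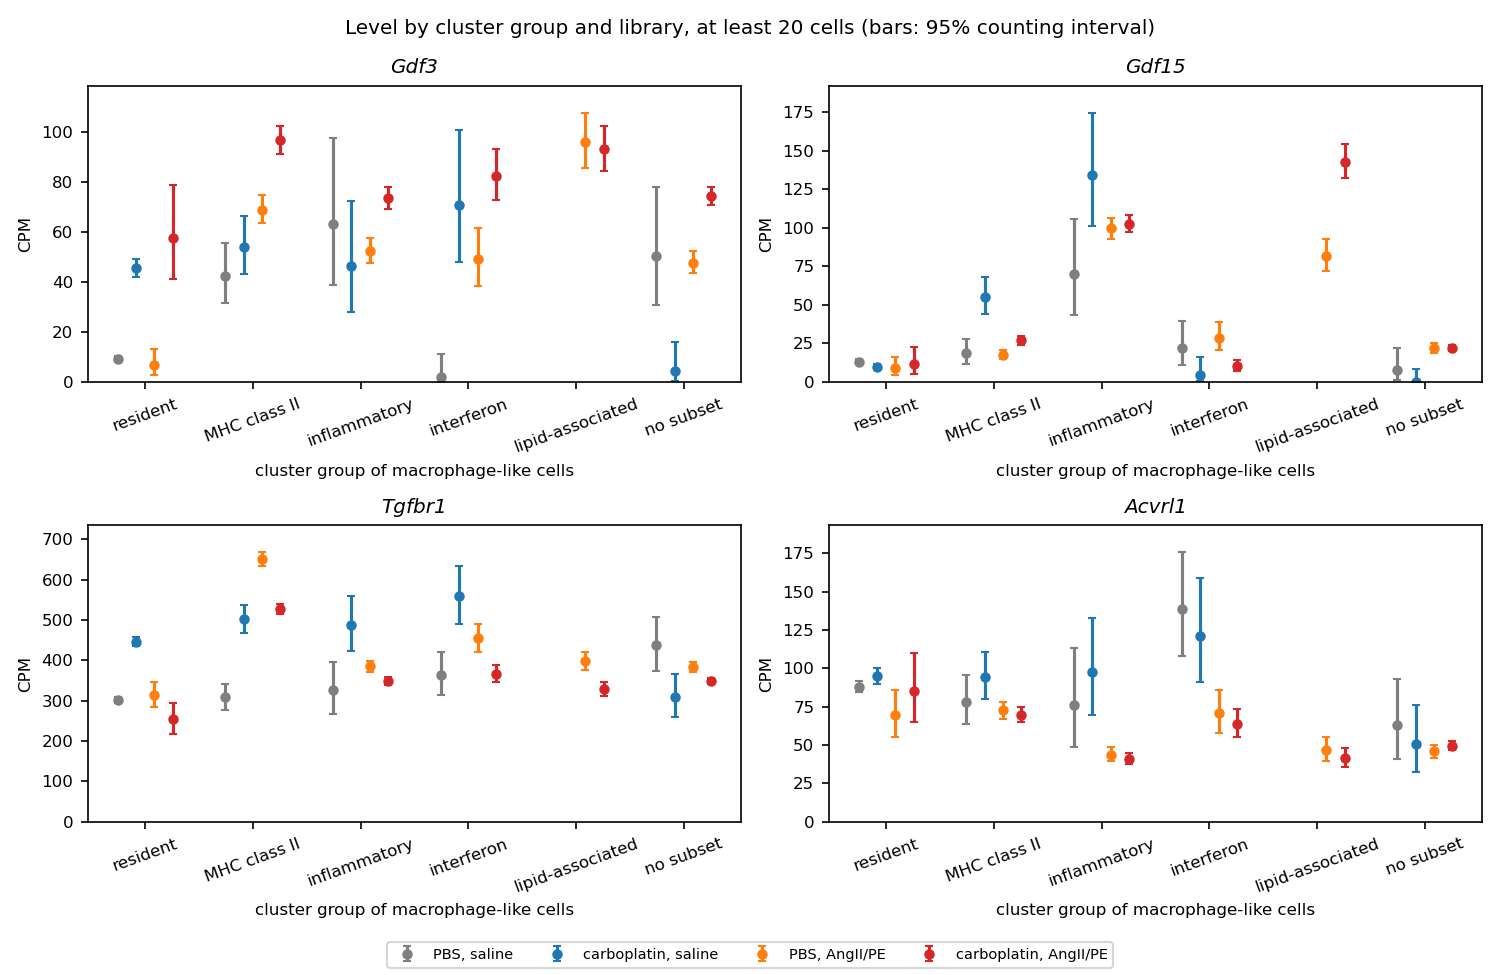
Level as CPM (y axis, from 0) of Gdf3, Gdf15, Tgfbr1 and Acvrl1 by cluster of macrophage-like cells (x axis), 1 point for each library with at least 20 cells there and exact 95% counting intervals as bars. In resident-like cells with saline pumps Gdf3 is 45.6 CPM after carboplatin and 9.23 after PBS, and Gdf15 is low there and high in inflammatory and lipid-associated cells.

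Cells called female by Xist and male by Y-linked transcripts differed in Gdf3 in each library. The level was 18.5, 60.9, 124 and 122 CPM in female-called and 9.48, 30.1, 33.4 and 48.0 CPM in male-called macrophage-like cells. The ratio of female to male was 1.95 (1.54 to 2.48), 2.02 (1.71 to 2.40), 3.71 (3.36 to 4.10) and 2.54 (2.37 to 2.72), above 1 in 4 of 4 libraries. It was also above 1 in 9 of the 9 pairs of a cluster and a library with at least 50 cells of each sex, from 1.37 for resident-like cells of PBS with saline to 4.85 for inflammatory cells of PBS with AngII/PE. With saline pumps the carboplatin ratio was 3.30 (2.80 to 3.90) in female-called cells and 3.18 (2.50 to 4.05) in male-called ones. With AngII/PE pumps it was 0.982 (0.913 to 1.06) against 1.43 (1.30 to 1.58), with an interval that includes 1 in female-called cells. Female-called cells were 45.5%, 55.8%, 29.2% and 49.4% of the cells called in the 4 libraries. How many mice of each sex a pool held is not stated in the labels, and the part of single mice in these values was not tested.

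**Figure D4:**
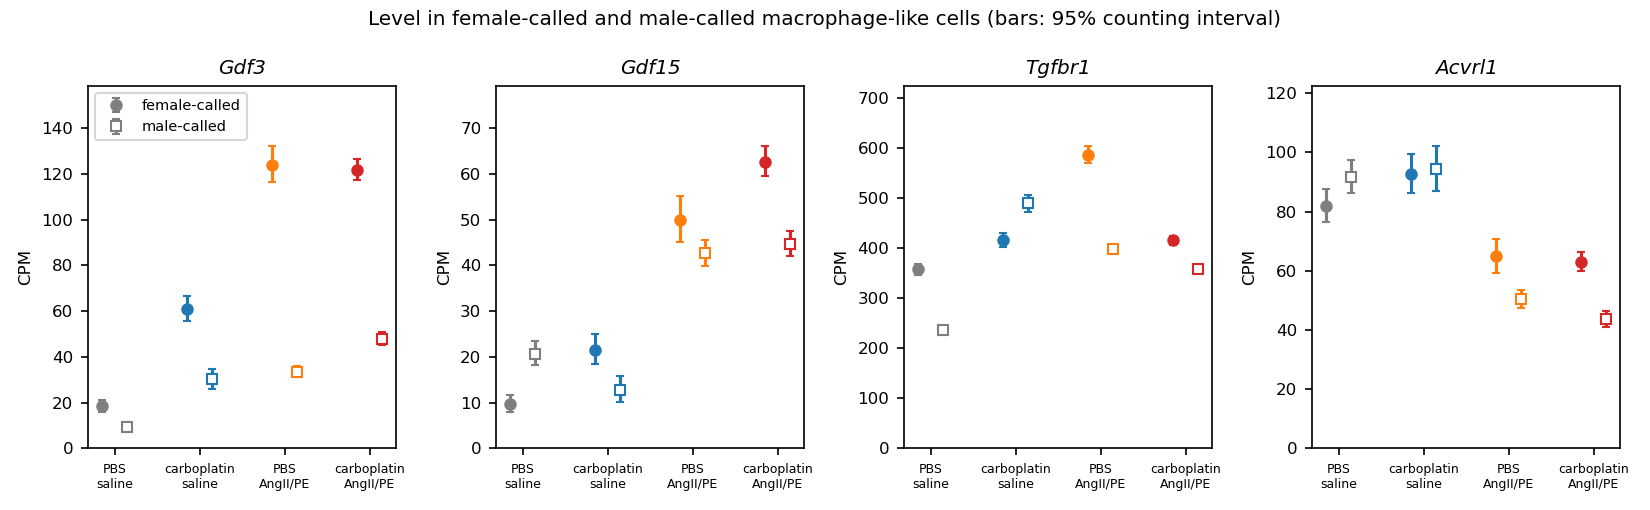
Level as CPM (y axis, from 0) of Gdf3, Gdf15, Tgfbr1 and Acvrl1 in female-called (filled circles) and male-called (open squares) macrophage-like cells of the 4 libraries (x axis), with exact 95% counting intervals as bars. Gdf3 lies higher in female-called cells in 4 of 4 libraries, whereas the order of the sexes for Gdf15 differs between the saline libraries.

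Gdf15, a ligand induced by cell stress that reduces appetite, lies on chromosome 8 (70629393 to 70632456, minus strand, protein coding). Its level was 14.2 CPM (12.9 to 15.7, 398 UMIs) with PBS and saline, 16.8 CPM (14.9 to 18.8, 286 UMIs) with carboplatin and saline, 45.9 CPM (43.6 to 48.3, 1486 UMIs) with PBS and AngII/PE, and 51.9 CPM (50.0 to 53.8, 2941 UMIs) with carboplatin and AngII/PE. Both AngII/PE libraries lay above both saline libraries, and the intervals of the saline libraries overlapped. AngII/PE over saline gave 3.23 (2.89 to 3.62) in the PBS pair and 3.10 (2.74 to 3.51) in the carboplatin pair. Carboplatin over PBS gave 1.18 (1.01 to 1.37) and 1.13 (1.06 to 1.203) with the 2 pumps. The first of these was 0.615 (0.473 to 0.791) in male-called cells, on the other side of 1, and 2.23 (1.74 to 2.86) in female-called ones.

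Gdf15 transcripts sat in few cells. A UMI was found in 6.05%, 5.998%, 11.4% and 14.3% of macrophage-like cells, and after thinning in 1.96%, 1.87%, 4.45% and 5.26%. In endothelial-like cells the shares were 0.669%, 0.721%, 2.96% and 5.11%, and 0.204%, 0.456%, 1.41% and 1.88% after thinning, higher in both AngII/PE libraries as in macrophage-like cells. The thinned macrophage-like share lay above that background in each library, with overlapping intervals for carboplatin with saline, and the part of free RNA in the shares was not tested. The highest single cell held 39, 51, 104 and 110 UMIs, and the 10 highest cells held 41.2%, 64.7%, 34.9% and 18.8% of all Gdf15 UMIs. The concentration was strongest with carboplatin and saline. Without the highest cell of each library the 4 ratios kept their direction.

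By cluster Gdf15 was highest in inflammatory cells, of which it is itself a leading gene, and, with AngII/PE pumps, in lipid-associated cells. Inflammatory cells numbered 22, 21, 532 and 916 and had 69.7, 134, 99.5 and 103 CPM, from 22, 55, 813 and 1419 UMIs, of which 1 cell held 44 with carboplatin and saline. Lipid-associated cells had 81.9 CPM (72.1 to 92.6) with PBS and 143 CPM (132 to 154) with carboplatin under AngII/PE, a ratio of 1.74 (1.51 to 2.02), and numbered 10 and 9 in the saline libraries. Resident-like cells stayed between 9.21 and 13.2 CPM. MHC class II cells had 18.7, 55.1, 17.7 and 27.0 CPM, but 1 cell held 51 of the 90 UMIs of carboplatin with saline. Without the highest cell of each library the levels were 7.47, 24.1, 15.1 and 23.8 CPM, and the intervals of both carboplatin libraries overlapped. The ratio of AngII/PE to saline in the PBS pair was 0.699 (0.345 to 1.27) within resident-like, 0.944 (0.607 to 1.53) within MHC class II and 1.43 (0.937 to 2.29) within inflammatory cells, and these intervals include 1. Without the highest cell of each library they were 0.508 (0.202 to 1.06), 2.02 (1.04 to 4.52) and 1.77 (1.06 to 3.17), the latter pair above 1. The clusters together gave 3.23.

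Tgfb1, the TGF-beta ligand gene best known from immune cells, lies on chromosome 7 (25687002 to 25705077, plus strand, protein coding). A UMI was found in 87.1 to 91.5% of macrophage-like cells. Its level was 245 CPM (239.7 to 251), 275 CPM (267 to 283), 247 CPM (241 to 252) and 246 CPM (242 to 250.2). Carboplatin with saline stood above the other 3, which overlapped. The ratios were 1.12 (1.08 to 1.16) and 0.997 (0.970 to 1.03) for carboplatin with the 2 pumps, and 1.01 (0.973 to 1.04) and 0.895 (0.866 to 0.925) for AngII/PE in the 2 pairs. In the saline pair the carboplatin ratio was 0.966 (0.912 to 1.02) in female-called cells against 1.27 (1.1999 to 1.35) in male-called ones. Platelet genes, among them Pf4, which resident macrophages also express, summed to 2321, 1507, 1307 and 1808 CPM in macrophage-like cells. Platelets carry Tgfb1, and their part in its level was not tested. Patrolling monocytes had 424 CPM (352 to 507) and 436 CPM (381 to 497) with saline pumps, above macrophage-like cells, from 41 and 55 cells. Fibroblast-like cells had 50.7, 26.3, 108 and 106 CPM, higher in both AngII/PE libraries than in both saline ones.

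Tgfb2 and Inhba were found mainly in stromal cells. Tgfb2, a TGF-beta isoform of mesenchymal cells, lies on chromosome 1 (186622792 to 186705989, minus strand, protein coding). In macrophage-like cells it had 47, 9, 25 and 31 UMIs, or 1.68, 0.527, 0.773 and 0.547 CPM. In fibroblast-like cells, of which there were 75, 70, 115 and 92, its level was 121 CPM (103 to 143), 126 CPM (106 to 147), 67.5 CPM (56.3 to 80.2) and 74.2 CPM (61.6 to 88.8). Both AngII/PE libraries lay below both saline libraries there, with no overlap. Endothelial-like cells had 33.1, 27.8, 19.9 and 26.5 CPM, and pericytes and smooth muscle cells 76.3 CPM over the 4 libraries together.

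Inhba, which encodes a subunit of activin A, lies on chromosome 13 (16011851 to 16031621, plus strand, protein coding). It had 11, 8, 11 and 26 UMIs in macrophage-like cells. In fibroblast-like cells its level was 53.2 CPM (41.0 to 68.0), 36.1 CPM (26.2 to 48.5), 26.4 CPM (19.6 to 34.7) and 18.6 CPM (12.5 to 26.5), with PBS saline above both AngII/PE libraries and the other neighbours overlapping. These UMIs lay in 28, 23, 25 and 17 cells. The 10 highest cells held 68.8%, 70.5%, 70.0% and 76.7% of them, a spread the intervals do not cover. In endothelial-like cells 28 and 32 UMIs were counted with AngII/PE, of which single cells held 18 and 31. Fibroblast markers summed to 127, 169.5, 267 and 298 CPM in macrophage-like cells, and their part in the few Tgfb2 and Inhba UMIs there was not tested.

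**Figure D5:**
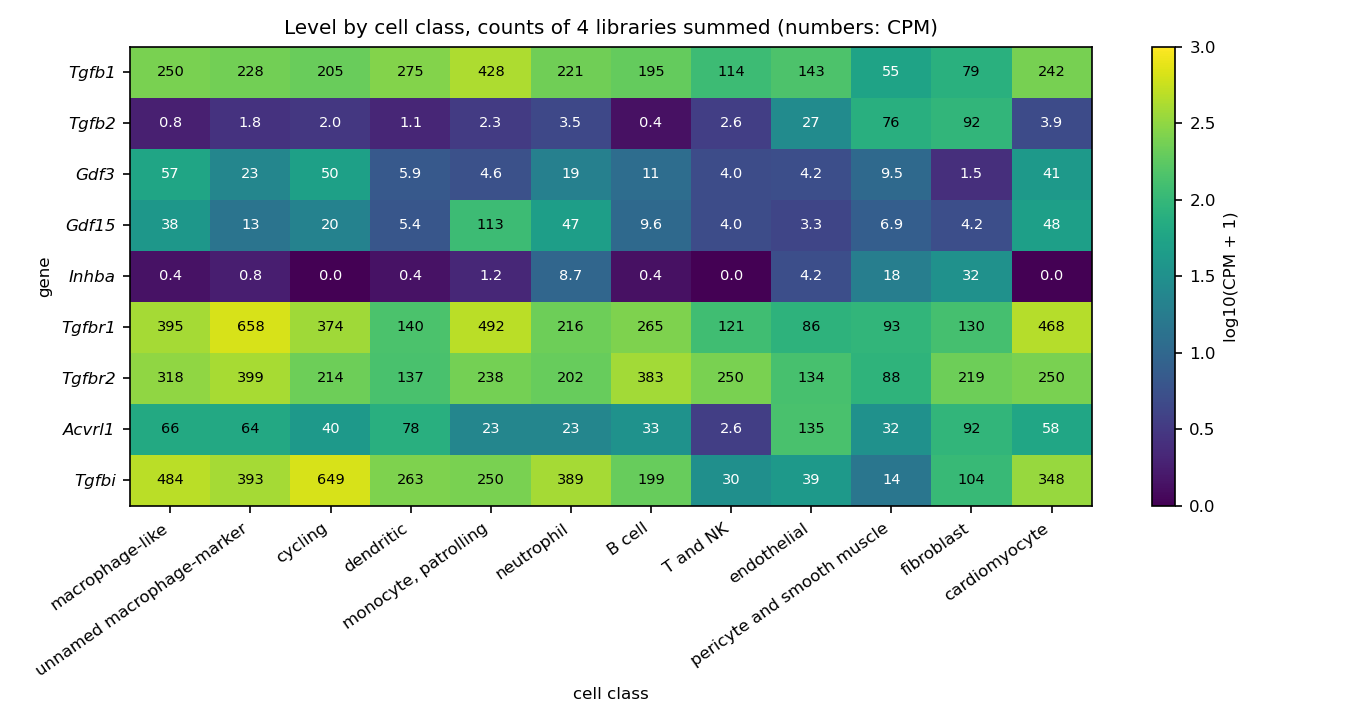
Level of the 9 members by cell class, with the UMIs of the 4 libraries summed. Numbers are CPM and colour is log10(CPM + 1). Tgfb2 and Inhba are highest in fibroblasts (92.2 and 31.7 CPM), Acvrl1 in endothelial cells (135 CPM), and the 113 CPM of Gdf15 in patrolling monocytes comes from 98 UMIs, 94 of them in 1 cell.

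The receptor genes Tgfbr1 and Tgfbr2 lay on opposite sides of 1 in 3 of the 4 comparisons, and both were lower with AngII/PE in the carboplatin pair. Tgfbr1, the type I receptor gene, lies on chromosome 4 (47353222 to 47414931, plus strand, protein coding). Its level in macrophage-like cells was 306 CPM (299 to 312) with PBS and saline, 451 CPM (441 to 462) with carboplatin and saline, 459.5 CPM (452 to 467) with PBS and AngII/PE and 385 CPM (380.2 to 390.4) with carboplatin and AngII/PE. PBS with saline was lowest, carboplatin with AngII/PE came next, and the other pair overlapped. Carboplatin over PBS gave 1.48 (1.43 to 1.52) with saline pumps and 0.838 (0.821 to 0.856) with AngII/PE pumps, on opposite sides of 1. AngII/PE over saline gave 1.50 (1.46 to 1.54) in the PBS pair, just past 1.5-fold, and 0.853 (0.832 to 0.876) in the carboplatin pair. The former ranged from 1.15 with log-normalised clustering to 2.78 at a finer clustering resolution. With the same alternatives the latter ranged from 0.625, past 1.5-fold lower, to 1.39, on the other side of 1. These alternatives changed which cells were compared. The macrophage-like class held 945, 356, 2066 and 3857 cells at the finer resolution and 2246, 1451, 1348 and 2263 with log-normalised clustering. It held 1949, 1017, 2127 and 3921 in the clustering used throughout. After thinning, 32.0%, 42.6%, 50.1% and 45.9% of cells held a UMI, against 12.1% of endothelial-like cells. By cluster the AngII/PE comparison differed. Resident-like cells had 375 Tgfbr1 UMIs of 1194573 with PBS and AngII/PE against 7633 of 25347227 with PBS and saline, nearly level. In the carboplatin pair they had 176 of 691700 against 6232 of 13955599, lower with AngII/PE. MHC class II cells had 5772 of 8870837 against 378 of 1227390 in the PBS pair, higher with AngII/PE. In the carboplatin pair these had 6427 of 12192957 against 821 of 1633013, nearly level.

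Within clusters the carboplatin ratio of Tgfbr1 in the saline pair was 1.48 (1.43 to 1.53) in resident-like, 1.63 (1.44 to 1.85) in MHC class II, 1.49 (1.17 to 1.91) in inflammatory and 1.53 (1.26 to 1.87) in interferon cells. Cells with no subset name, 33 and 30 in number, gave 0.707 (0.562 to 0.889), on the other side of 1, and lipid-associated cells, 9 and 10 in number, gave 0.806 (0.578 to 1.12), with an interval that includes 1. In the AngII/PE pair it lay between 0.806 and 0.907 in the 6 clusters. The sexes differed in size, with 2.08 (1.97 to 2.19) in male-called against 1.16 (1.11 to 1.22) in female-called cells of the saline pair. The unnamed cells with macrophage markers, at a median depth of 4020.5 to 5430 UMIs, had more Tgfbr1 in each library, at 449.9, 651, 864 and 784 CPM. The labels do not say if intronic reads are among these counts, and their part in the Tgfbr1 level of cells of low depth was not tested.

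Tgfbr2, the type II receptor gene, lies on chromosome 9 (116084293 to 116175360, minus strand, protein coding). Its level was 398 CPM (391 to 405) with PBS and saline, 351 CPM (342 to 359.7) with carboplatin and saline, 271 CPM (265 to 277) with PBS and AngII/PE and 297 CPM (292 to 301) with carboplatin and AngII/PE. No intervals overlapped, and both AngII/PE libraries lay below both saline libraries. Carboplatin over PBS gave 0.882 (0.854 to 0.910) with saline pumps and 1.095 (1.07 to 1.12) with AngII/PE pumps, each opposite to Tgfbr1. AngII/PE over saline gave 0.681 (0.662 to 0.700) in the PBS pair and 0.846 (0.822 to 0.872) in the carboplatin pair, both short of 1.5-fold. In the PBS pair it was 0.607 (0.584 to 0.631) in male-called cells, past 1.5-fold lower, and 0.836 (0.795 to 0.880) in female-called ones. Within MHC class II cells the ratio of the PBS pair was 1.68 (1.46 to 1.94), opposite to the 0.864 (0.783 to 0.952) within resident-like cells. B cells had 339.7, 438, 345 and 359.8 CPM and endothelial-like cells 142, 108, 153 and 134 CPM.

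Tgfbr1 UMIs per Tgfbr2 UMI in macrophage-like cells numbered 0.769 (0.747 to 0.791) with PBS and saline, 1.29 (1.24 to 1.33) with carboplatin and saline, 1.70 (1.65 to 1.74) with PBS and AngII/PE and 1.30 (1.27 to 1.32) with carboplatin and AngII/PE. The carboplatin libraries overlapped and lay between the PBS libraries. This quotient compares libraries and not the amounts of the receptors. In resident-like cells it was 0.730, 1.21, 0.880 and 0.946, and in MHC class II cells 1.73, 2.20, 2.18 and 1.84.

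Acvrl1 encodes ALK1, a type I receptor for circulating BMPs best known from endothelium, and lies on chromosome 15 (101128522 to 101145336, plus strand, protein coding). Its level in macrophage-like cells was 87.5 CPM (84.0 to 91.0), 94.3 CPM (89.8 to 99.1), 54.7 CPM (52.1 to 57.3) and 52.4 CPM (50.5 to 54.3). Both AngII/PE libraries lay below both saline libraries and overlapped each other. With AngII/PE over saline the ratio was 0.625 (0.587 to 0.665) in the PBS pair and 0.555 (0.522 to 0.590) in the carboplatin pair, and carboplatin over PBS gave 1.08 (1.01 to 1.15) and 0.958 (0.903 to 1.02). At the finer clustering resolution, with 945 and 356 macrophage-like cells in the saline libraries, the AngII/PE ratios were 0.817 and 0.709. In female-called cells they were 0.792 (0.709 to 0.884) and 0.679 (0.621 to 0.742), and all of these fell short of 1.5-fold lower. After thinning, 16.7%, 19.1%, 10.9% and 10.3% of cells held a UMI. Endothelial-like cells had 154, 131, 125 and 128 CPM, above macrophage-like cells in each library. Endothelial markers summed to 45.0, 55.3, 70.1 and 63.0 CPM in macrophage-like cells, lower in both saline libraries, where Acvrl1 was higher, and their part in its level was not tested. Within clusters the AngII/PE ratio in the PBS pair was 0.791 (0.627 to 0.985) in resident-like, 0.927 (0.747 to 1.16) in MHC class II and 0.575 (0.380 to 0.909) in inflammatory cells. In the carboplatin pair these were 0.897 (0.679 to 1.16), 0.738 (0.621 to 0.882) and 0.420 (0.305 to 0.595).

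Tgfbi, which encodes a secreted matrix protein induced by TGF-beta, lies on chromosome 13 (56609523 to 56639562, plus strand, protein coding). Its level was 462 CPM (454 to 469.9), 487 CPM (477 to 498), 499 CPM (491 to 506) and 487 CPM (481 to 492), and 94.3 to 97.6% of macrophage-like cells held a UMI. PBS with saline was lowest and the other 3 overlapped. The ratios lay between 0.976 and 1.08. Cycling cells, kept apart from the macrophage-like class, had 458, 535, 711 and 703 CPM from 25, 33, 40 and 115 cells. The AngII/PE ratio in the PBS pair was 1.202 (1.16 to 1.24) in male-called and 0.908 (0.870 to 0.947) in female-called cells, on opposite sides of 1.

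The rest of the pathway was followed in 8 lists of other genes in macrophage-like cells, read against the same shares of all genes as the members. Bmp2, Thbs1, Sesn2 and Acvr2b reached the mean of 10 CPM only through the 2 libraries where each was highest. They had to differ to some extent, though by no set amount, and their ratios are a description. Of 26 other ligands, Bmp2 alone reached that mean. Bmp2, a bone morphogenetic protein, had 23.0, 15.3, 3.90 and 6.10 CPM, with both AngII/PE libraries below both saline libraries. From saline to AngII/PE the ratio was 0.169 (0.139 to 0.205) in the PBS pair and 0.399 (0.339 to 0.470) in the carboplatin pair. Its carboplatin ratio was 0.665 (0.574 to 0.769) with saline pumps and 1.57 (1.27 to 1.94) with AngII/PE pumps.

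Of 12 other receptors 6 were compared and 0 lay past 1.5-fold in any of the 4 comparisons. The co-receptor gene Eng stood furthest from 1 for carboplatin with saline pumps (1.47, 1.33 to 1.61) and the activin receptor gene Acvr2b with AngII/PE pumps (0.919, 0.796 to 1.06). Acvr1 did so for AngII/PE in the PBS pair (0.790, 0.734 to 0.850) and Acvr2a in the carboplatin pair (0.692, 0.646 to 0.742). Of the 6 SMADs that carry the signal 5 were compared. Smad3 was lower with AngII/PE in the PBS pair (0.662, 0.623 to 0.703), the 1 of 5 past 1.5-fold, at a median log2 ratio of -0.36. In the carboplatin pair it stood at 0.705 (0.663 to 0.752) and 0 of 5 passed. For carboplatin 0 of 5 passed, and Smad2 (0.877, 0.820 to 0.937) and Smad4 (0.918, 0.870 to 0.968) stood furthest from 1 with saline and AngII/PE pumps.

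Of 15 genes that store or release latent TGF-beta 7 were compared. For AngII/PE against saline 5 were higher and 0 lower in the PBS pair, as in the carboplatin pair, at median log2 ratios of 0.99 and 0.68. Thbs1, which had to differ, is among the 5 and enters both medians. The rest of the 5, Itgav, Itgb5, Furin and Mmp14, reached 10 CPM in each of the 4 libraries. The other 2 compared, named once their values had been seen, lay below 1 in both pairs and short of 1.5-fold, with ratios of 0.768 and 0.849 for Nrros, which holds latent TGF-beta on myeloid cells, and 0.706 and 0.772 for the integrin gene Itgb1. Thbs1, whose product thrombospondin-1 can release the ligand, had 4.43, 3.81, 36.8 and 21.6 CPM. The AngII/PE to saline ratios were 8.31 (6.90 to 10.1) and 5.68 (4.42 to 7.40) in the 2 pairs. Thbs1 was also the 1 gene of the 7 that was lower after carboplatin with AngII/PE pumps (0.587, 0.542 to 0.637). The membrane protease gene Mmp14 had 16.2, 24.3, 115 and 91.6 CPM and was the 1 of 7 that was higher after carboplatin with saline pumps (1.50, 1.31 to 1.72).

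Of 18 inhibitors of the pathway 9 were compared, with 3 higher and 0 lower for AngII/PE in the PBS pair and 2 higher and 1 lower in the carboplatin pair. The inhibitory SMAD gene Smad7 had 16.0, 17.7, 41.4 and 40.2 CPM, and AngII/PE over saline gave 2.58 (2.32 to 2.88) and 2.27 (2.02 to 2.57). For carboplatin 0 of 9 passed with either pump, and the repressor gene Tgif1 (1.39, 1.28 to 1.51) and the ubiquitin ligase gene Smurf1 (0.777, 0.725 to 0.833) stood furthest from 1.

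Of 11 further targets 6 were compared, with 2 higher and 1 lower for AngII/PE in the PBS pair and 1 higher and 2 lower in the carboplatin pair. Id3, a target of BMP signals, had 39.7, 35.2, 17.7 and 14.0 CPM, and AngII/PE over saline gave 0.446 (0.402 to 0.493) and 0.398 (0.358 to 0.443). For carboplatin 0 of 6 passed under either pump, and Junb (0.835, 0.820 to 0.851) stood furthest from 1 with saline pumps.

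Of 9 genes that depend on TGF-beta in microglia, the macrophages of the brain, 6 were compared. For AngII/PE 3 of the 6 were higher and 0 lower in each pair, against 17.2% and 15.1% of all genes past 1.5-fold. The median log2 ratios were 0.67 and 1.03. This list was chosen with earlier results of these data known, so its counts are a description. P2ry12 (0.906 and 0.930), Gpr34 (0.879 and 1.38) and Cx3cr1 (1.23 and 0.902) fell short of 1.5-fold in both pairs. Tmem119 had 18.1, 20.4, 106 and 104 CPM, and AngII/PE over saline gave 5.85 (5.32 to 6.43) and 5.12 (4.60 to 5.72). For carboplatin 0 of 6 passed, and the fractalkine receptor gene Cx3cr1 (1.31, 1.26 to 1.37) and Fcrls (1.36, 1.33 to 1.38) stood furthest from 1. Of 7 genes of the integrated stress response, which can induce Gdf15, 6 were read and 3 were compared. Ddit3, a gene of that list, was not read, so its level is not known here. Sesn2 was higher after carboplatin with saline pumps (1.59, 1.28 to 1.98) and for AngII/PE in the PBS pair (1.91, 1.59 to 2.29), where 1 of the others was lower. In the other comparisons 0 of 3 passed, with Atf4 (0.885, 0.844 to 0.928) furthest from 1 for carboplatin with AngII/PE pumps and Atf3 (0.711, 0.695 to 0.728) for AngII/PE in the carboplatin pair.

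The genes most alike in pattern were ranked by Pearson's r of log2(CPM + 5) over 34 units, each a cell class or macrophage cluster in 1 library with at least 50 cells, among 9069 genes. The units share 4 libraries and their depth, so r is a description. Next to Tgfb1 stood Lfng (0.916), Hcls1 (0.911) and Rassf4 (0.906). Tgfb2 was followed by Meis2 (0.981), Ghr (0.980) and Pard3 (0.979), the closest of the 8 members ranked. Gdf3 had Ifnar2 (0.898), Atp6v0c (0.894) and Tmem86a (0.892), and Gdf15 had Clec4d (0.790), Ddx28 (0.787) and Cdk18 (0.787), the loosest. The receptor gene Tgfbr1 had Cx3cr1 (0.924), Dhx34 (0.918) and Irf8 (0.913), and Tgfbr2 had Il16 (0.851), Blvrb (0.816) and Sesn1 (0.809). Acvrl1 was followed by Dst (0.859), Tsc22d1 (0.829) and Arhgap5 (0.828), and Tgfbi by Cmtm7 (0.943), Zeb2 (0.934) and Daglb (0.928).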

How the data were processed

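The authors deposited raw UMI counts for every gene and barcode, without normalisation. Per the file headers these come from Cell Ranger 7.1.0, while the labels' protocols give version 3 and mm10. The labels do not say if intronic reads count. The authors used Seurat 4, per the submitters' processing notes.

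Members and gene lists were chosen with earlier results of these data known. Barcodes passed the submitters' filters (under 10% mitochondrial UMIs, under 30000 UMIs, between 500 and 7000 genes), were normalised together by SCTransform (sctransform 0.4.2, Seurat 5.3.0, R 4.3.3) and clustered on 80 principal components at resolution 0.6, giving 23 clusters. Names came from 25 marker lists, with cutoffs chosen once the data had been seen, and are not the authors' annotation. Scrublet (scanpy 1.11.5) marked 49 cells (0.283%), which is too low to rely on, and no doublet was taken out. Cycling cells were left out of the macrophage-like class.

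UMIs were summed over the cells of a library and class, and intervals computed with scipy 1.17.1 after being tested on simulated data. Cells below 2000 UMIs were left out of thinned shares. Beyond the members, the text names the compared gene of each list with the largest absolute log2 ratio in each comparison and the 3 genes most alike to each member. Further genes of a list were named once their values had been seen. Positions come from GENCODE M21 on the same build, which held 32158 of the 32285 gene IDs. Results were recomputed under 16 other settings and 2 added after seeing the data, with TMM factors from edgeR 4.0.16.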

Additional observations from a re-analysis of the deposited data

Results flagged for a closer look

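The carboplatin ratios of Tgfbr1, Tgfbr2 and Tgfbi lay on opposite sides of 1 with saline and with AngII/PE pumps. Those of Tgfbi were close to 1, at 1.06 (1.03 to 1.08) and 0.976 (0.957 to 0.995). Over all kept cells they were 0.949 and 1.055, each on the other side of 1. Of 14 alternatives 12 and 11 kept the direction for Tgfbi. The ratio with saline pumps divided by that with AngII/PE pumps was 1.76 (1.70 to 1.83) for Tgfbr1, 0.805 (0.773 to 0.838) for Tgfbr2 and 1.08 (1.05 to 1.12) for Tgfbi. With 1 library per group the difference was not tested against the spread between mice.

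In 4 cases the ratios of female- and male-called cells lay on opposite sides of 1 with intervals that both exclude 1, and these differences were not tested either. For Gdf15 the carboplatin ratio in the saline pair was 2.23 (1.74 to 2.86) in female-called cells against 0.615 (0.473 to 0.791) in male-called ones, a quotient of 3.62. The 10 highest cells held 61.3 to 92.9% of the Gdf15 UMIs there. For Tgfbr2 the carboplatin ratio in the AngII/PE pair had a quotient of 0.825. For Tgfbi the quotient of the AngII/PE ratio was 0.756 in the PBS pair and 0.774 in the carboplatin pair.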

How the results depend on the processing

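The count of members past 1.5-fold was 1 for carboplatin with saline pumps, 0 for carboplatin with AngII/PE pumps, 4 for AngII/PE in the PBS pair and 3 in the carboplatin pair. Of all genes 3.77%, 1.44%, 17.2% and 15.1% lay past it in that order. With the line at a ratio 25% above 1, or its inverse, the first pair became 2 and 1, and at 2-fold the last pair became 2 and 1. Shares of all genes are not given for these lines or for the settings that follow, so those counts describe the members alone. For carboplatin with saline pumps the count was 2 with log-normalised clustering, with the unnamed macrophage-marker clusters, in female-called cells and with the mean of per-cell CPM, and 3 at resolution 1.2 and in male-called cells. For carboplatin with AngII/PE pumps it was 1 over all kept cells and 1 with the mean of per-cell CPM. Members crossed the line in the AngII/PE comparisons too. Acvrl1 fell short of it at resolution 1.2 (0.817 and 0.709) and in female-called cells (0.792 and 0.679). Tgfbr2 passed it in male-called cells of the PBS pair (0.607). With log-normalised clustering Tgfbr1 fell short in the PBS pair (1.15). In the carboplatin pair it then passed the line downwards (0.625) and Gdf3 fell short (1.47). Resolution 1.2 and log-normalised clustering also changed which cells counted as macrophage-like. That class then held 945, 356, 2066 and 3857 cells, or 2246, 1451, 1348 and 2263, in that order. The causes were not tested. Over the 14 alternatives that recompute ratios, Gdf3 kept a carboplatin ratio of 2.62 to 3.81 in the saline pair, and Gdf15 AngII/PE ratios of 2.06 to 5.16 and 2.50 to 6.16. The alternatives without barcodes shared between libraries and without the highest cell of a cluster were chosen after seeing the data. No paired analysis was possible because each group has 1 library. Depth limits Tgfb2 and Inhba, with 8 to 47 UMIs per library in macrophage-like cells.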
